A study of Mus musculus with 4 samples.

Results

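The expression of 10 genes of the JAK-STAT pathway was examined in cultured mouse Th2 cells: the feedback inhibitors Cish, Socs1, Socs2 and Socs3, the kinases Pim1 and Pim2, and the transcription factors Stat3, Stat4, Stat5a and Stat5b. They were chosen by name, as genes of STAT signalling in T cells, with earlier results of these data known. All 10 were found among the 18539 genes that could be named on the arrays, through 13 probes, and all 13 probes were well above background on each of the 4 arrays. SH-2251 is a small compound that the study examined for its action on Th2 cell differentiation and IL-5 production, and the arrays address which genes differ in cells grown with it.

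There were 4 conditions with 1 array each: control resting, SH-2251 resting, control restimulated and SH-2251 restimulated. The cells came from spleens of female C57BL/6J mice, for which the labels give no age, and no group carried a genetic change. According to the labels, CD4 T cells were activated for 2 days with 3 µg/ml plate-bound antibody to TCR-β and 1 µg/ml antibody to CD28. IL-2 at 2.5 ng/ml and IL-4 at 10 ng/ml were present in all 4 conditions, during activation and for 3 further days in new plates. The labels give SH-2251 at 1 µM in the former phase and 1 mM in the latter, whereas the study's general methods name a dose in the nanomolar range, start from naïve CD4 T cells and add an antibody to IFN-γ. Restimulated cells received the plate-bound antibody to TCR-β for 4 h before RNA was taken. The labels do not say how many mice or cultures contributed to an array. Each condition had no replicate, so no difference here has a test or a replicate error, and every count is a description of these 4 arrays.

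In the JAK-STAT pathway, a cytokine brings receptor chains together, Janus kinases bound to them phosphorylate STAT factors, and paired STATs enter the nucleus and activate genes. Cish and the Socs genes are themselves switched on by STATs, and their proteins shut off the receptor or its kinase, which closes a feedback loop. The Pim genes are also induced by cytokines through STATs and encode serine/threonine kinases that favour growth and survival. In CD4 T cells IL-2 acts mainly through STAT5A and STAT5B, IL-4 through STAT6, IL-12 through STAT4 and IL-6 and IL-21 through STAT3. STAT5 is needed along with STAT6 for Th2 differentiation.

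STATs bind a palindrome of TTC and GAA separated by 3 bases of any kind, and STAT6 favours a spacing of 4. These letters were searched in the promoter windows of RefSeq (build GRCm38.p6), which run from 250 bases before to 50 bases after a gene's start. Both forms read the same on either strand. The table held 13 windows for 9 of the 10 genes, since several genes have more than 1 start, and none for Socs2. The form with 3 bases occurred in 2 of the 13 windows, those of Cish and Socs3, against 8.30% of all 32851 windows of the same length. Within the 250 bases before the start it occurred in 1 of the 13, that of Socs3, against 7.02% of all. The form with 4 bases occurred in 0 of the 13 windows, against 6.95% of all windows, or 5.85% within the 250 bases before the start. Absence says only that these letters were not in these windows. Both stretches with the palindrome are shown because they are where the palindrome was found, and because Socs3 was the feedback gene that differed most with SH-2251 while Cish barely differed. Capitals mark the palindromes. For Cish the last 20 bases follow the start, so that its palindromes begin at bases 1 and 12 of the transcript, and for Socs3 the palindrome begins at base -154, counted back from the start.
Cish, plus strand, chr9:107296559-107296678: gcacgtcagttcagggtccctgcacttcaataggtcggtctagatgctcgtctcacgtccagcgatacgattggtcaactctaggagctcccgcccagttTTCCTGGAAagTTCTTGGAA
Socs3, minus strand, chr11:117969367-117969566: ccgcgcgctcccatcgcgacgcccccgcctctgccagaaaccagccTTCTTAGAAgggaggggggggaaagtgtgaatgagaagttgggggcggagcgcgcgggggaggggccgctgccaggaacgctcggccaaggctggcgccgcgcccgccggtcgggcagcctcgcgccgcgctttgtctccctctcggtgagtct

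Levels are given as the log2 of the scanner intensity minus the 75th percentile of the same array, so that 0 is the 75th percentile of all probes. Levels of different probes cannot be compared with each other, because probes differ in brightness. A difference is given on the log2 scale with a technical SD, which combines the error estimates of the scanner software for the arrays compared and says nothing of the spread between cultures. It was 0.204 for the differences of all 10 genes. On 1 array the software's estimate lay between 0.144 and 0.147 for all 13 probes. It is thus nearly a constant and not an error measured gene by gene. A gene is counted as higher or lower when it differed at least 2-fold, that is by at least 1 on the log2 scale. The 4 comparisons share arrays with each other, so their values are set side by side and not taken as independent. In RNA from whole cultures, fewer cells of a type and less RNA per cell cannot be told apart.

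**Figure D1:**
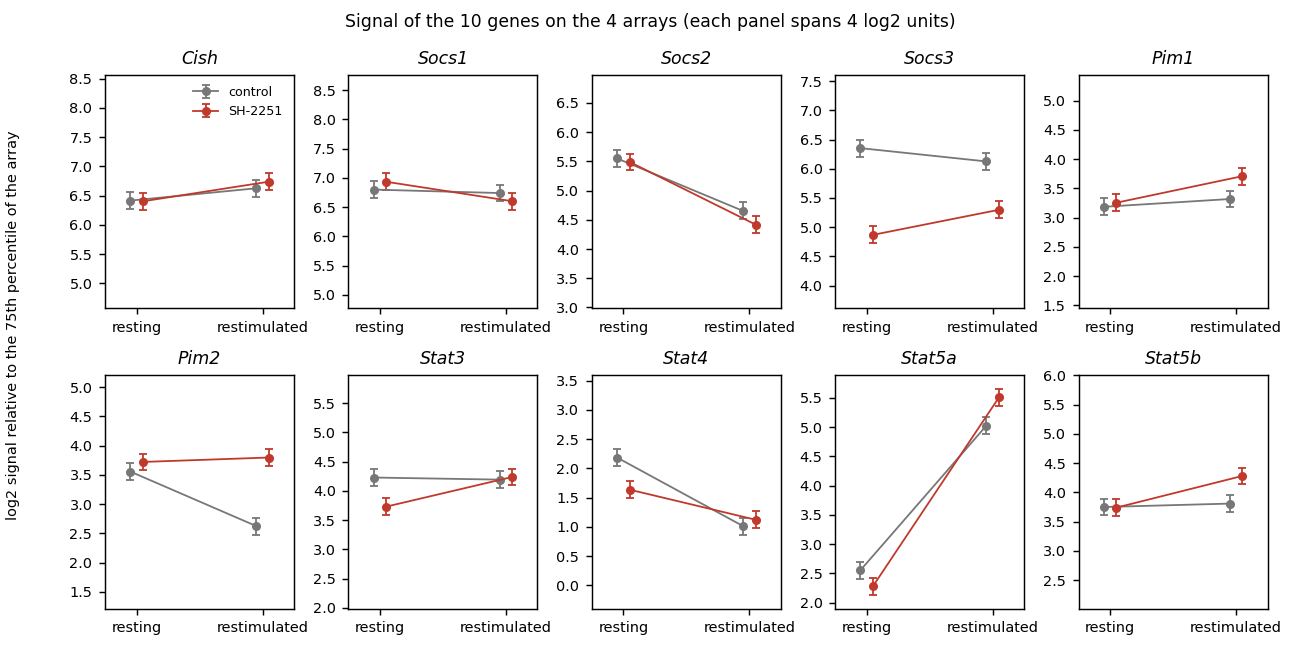
Level of each of the 10 genes on the 4 arrays (y axis: log2 signal, with 0 at the array's 75th percentile; x axis: resting or restimulated cells; grey: control; red: SH-2251; bars: technical SD of 1 array). Every panel spans 4 log2 units: Stat5a had the widest range, 3.23, Socs3 was lower with SH-2251 in both states, and Pim2 was low on the control restimulated array only.

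The 4 arrays were similar in brightness, with 75th percentiles between 499 and 614 intensity units and between 56.0% and 56.7% of probes well above background, and no spot was saturated. All 9 Th2 and T cell markers were well above background on every array. Among them Il5, the cytokine the study targeted, differed with SH-2251 by -3.86 in resting cells and by -3.01 after restimulation. Markers of other cell types were summed as linear signals in units of the 75th percentile, in the order control resting, SH-2251 resting, control restimulated and SH-2251 restimulated. B cell markers summed to 4.27, 4.92, 3.52 and 5.47, with 4 of 5 above background and Pax5 below it on all arrays. Myeloid markers summed to 2.63, 2.44, 2.82 and 2.99, with Lyz2 and Itgam below background everywhere. Markers of NK and CD8 T cells summed to 0.121, 0.312, 0.184 and 0.347, where Ncr1 and Klrb1c were below background everywhere. Red cell markers summed to 0.365, 0.712, 0.232 and 0.639. The sums of the B cell, the NK and CD8 T cell and the red cell lists were thus higher with SH-2251 in both states, and their part in the differences below was not tested.

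Among the feedback inhibitors, Socs3 stood apart from the others. SOCS3 binds the gp130 chain of the IL-6 receptor family and blocks the kinases attached to it. The level of Socs3 was 6.35 in control resting, 4.87 in SH-2251 resting, 6.13 in control restimulated and 5.30 in SH-2251 restimulated cells. Both arrays with SH-2251 were below both control arrays. In resting cells the difference was -1.48, which left 35.8% of the control signal and is a 2.80-fold lower value. Socs3 was the only 1 of the 10 genes at least 2-fold lower in this comparison, and none was at least 2-fold higher. Of all 12683 genes compared, 2.9% passed the limit downwards and 2.22% upwards, and Socs3 had rank 168 by size among the decreases. In restimulated cells the difference of Socs3 was -0.83, which left 56.4% of the control signal and did not reach 2-fold. Restimulation itself moved Socs3 little and in opposite directions, by -0.23 in control and by 0.43 in SH-2251 cells, so that the gap between treatments was narrower by 0.66 after restimulation.

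Cish is a well-known STAT5 target of IL-2 signalling, and CIS, its protein, occupies STAT5 docking sites on receptors. Cish was at 6.42, 6.40, 6.63 and 6.74 on the 4 arrays, in the order control resting, SH-2251 resting, control restimulated and SH-2251 restimulated. Its 4 levels spanned 0.34, and the difference with SH-2251 was -0.012 in resting and 0.11 in restimulated cells, both within the technical SD. Socs1, whose protein inhibits Janus kinases directly and restrains IFN-γ and IL-4 signalling, was at 6.80, 6.93, 6.74 and 6.60 in the same order. Its differences with SH-2251, 0.13 and -0.14, were within the technical SD as well. Socs2, which dampens growth hormone signalling and has been linked to the control of Th2 cells, was at 5.55, 5.49, 4.65 and 4.42. Here the restimulated arrays were the low ones: the difference after restimulation was -0.90 in control cells and -1.07, past 2-fold, in SH-2251 cells, where normexp background correction gave -0.81. With SH-2251 it differed by -0.061 at rest and by -0.23 after restimulation. The 4 feedback genes thus did not move together with SH-2251: in resting cells their differences ran from -1.48 for Socs3 to 0.13 for Socs1.

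**Figure D2:**
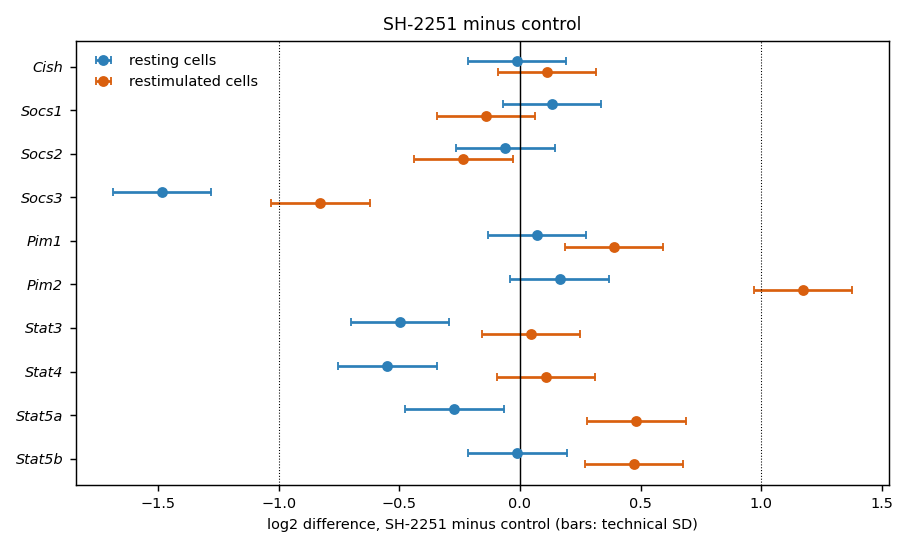
Difference between SH-2251 and control cells for each gene (x axis: log2 difference, SH-2251 minus control; blue: resting cells; orange: restimulated cells; bars: technical SD; dotted lines: 2-fold). Socs3 lies left of zero in both states, -1.48 and -0.83, Pim2 is past 2-fold to the right in restimulated cells alone, at 1.17, and the 4 STAT genes lie at or below zero in resting and above it in restimulated cells.

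The Pim kinases differed between treatments mainly after restimulation. Pim2 was measured by 3 probes, which gave nearly the same pattern. The brightest was at 3.56 in control resting, 3.72 in SH-2251 resting, 2.63 in control restimulated and 3.80 in SH-2251 restimulated cells. The next was at 3.19, 3.38, 2.29 and 3.44, and the dimmest at 1.86, 2.09, 1.04 and 2.14, in the same order. On each probe the control restimulated array was the low one and the other 3 arrays lay close together. By the brightest probe Pim2 differed after restimulation by -0.93 in control cells and by 0.076 in SH-2251 cells. With SH-2251 the difference was 0.16 in resting cells and 1.17, or 2.25-fold, in restimulated cells. Pim2 was the only 1 of the 10 genes at least 2-fold higher in the latter comparison, where 2.65% of all 12622 genes were, and none was at least 2-fold lower, against 2.78%. It had rank 224 among the increases. Summed B cell markers were also lowest in control restimulated cells, at 3.52, and highest in SH-2251 restimulated cells, at 5.47, and their part in the value of Pim2 was not tested. Among those markers Ms4a1, which encodes CD20, differed with SH-2251 by 0.74 at rest and by 1.21 after restimulation, Cd79b by 0.16 and 0.62, and Cd79a by -0.29 and -0.15.

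Pim1, the relative of Pim2 that is a common marker of cytokine response, was at 3.18, 3.25, 3.32 and 3.71 in the order used above. It was highest in SH-2251 restimulated cells, where it exceeded the control by 0.39. The other differences of Pim1 were 0.070 with SH-2251 in resting cells, 0.13 after restimulation of control cells and 0.45 after restimulation of SH-2251 cells. None reached 2-fold.

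**Figure D3:**
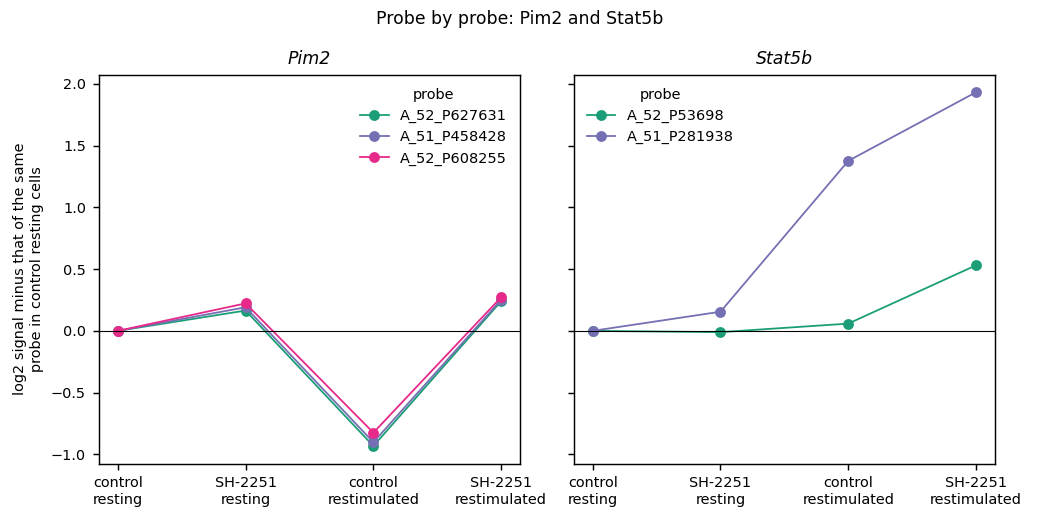
Probes of the 2 genes with more than 1 probe (y axis: log2 signal of a probe minus its own signal in control resting cells; x axis: the 4 conditions; lines join the values of a probe). The 3 Pim2 probes overlie each other with a dip in control restimulated cells, whereas the 2 Stat5b probes part after restimulation, at 1.38 and 0.059 in control cells.

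Among the STAT factors, Stat5a had by far the widest range over the 4 arrays. STAT5A and STAT5B are close relatives that transmit signals of IL-2, IL-7 and other cytokines using the common γ chain. Stat5a was at 2.55 in control resting, 2.28 in SH-2251 resting, 5.02 in control restimulated and 5.51 in SH-2251 restimulated cells. In intensity units these were 3286, 2982, 16254 and 26506. The restimulated arrays were far above the resting ones with either treatment. The difference after restimulation was 2.47, or 5.56-fold, in control cells and 3.23, or 9.37-fold, in SH-2251 cells. Those differences had rank 145 of 12757 and rank 75 of 12613 genes among the increases. By the brightest probe of each gene, Stat5a was the only 1 of the 10 at least 2-fold higher after restimulation, where 7.2% of all genes were in control and 7.09% in SH-2251 cells. With SH-2251 it differed by -0.27 at rest and by 0.48 after restimulation, each past the technical SD and neither past 2-fold.

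Stat5b was read by 2 probes that disagreed on restimulation. The brighter was at 3.75, 3.74, 3.81 and 4.28 in the order control resting, SH-2251 resting, control restimulated and SH-2251 restimulated. The dimmer was at -1.36, -1.20, 0.017 and 0.57. After restimulation the brighter probe differed by 0.059 in control and by 0.54 in SH-2251 cells, whereas the dimmer differed by 1.38 and 1.78. Only the dimmer probe thus placed Stat5b past 2-fold after restimulation. The files hold no probe sequences, so which transcripts each probe matches was not examined. Whether a Stat5b probe also reads its close relative Stat5a, which had 1 probe, was not tested either. With SH-2251 the brighter probe differed by -0.011 at rest and by 0.47 after restimulation. Stat5b, Stat5a and Stat3 lie next to each other on chromosome 11 with no other RefSeq gene listed between their starts, and by their brightest probes Stat5a alone of these was at least 2-fold higher after restimulation.

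Stat3, which carries IL-6 and IL-21 signals in T cells, was printed in 10 spots on each array, and this gives a direct view of the error within an array. Its mean was 4.23 in control resting, 3.73 in SH-2251 resting, 4.19 in control restimulated and 4.24 in SH-2251 restimulated cells, with SDs between spots of 0.0330, 0.0290, 0.0233 and 0.0277. The SH-2251 resting array was the low one, and its highest spot, 3.77, was below the lowest spot of control resting cells, 4.18. The difference with SH-2251 was -0.50 in resting and 0.045 in restimulated cells. Restimulation moved Stat3 by -0.036 in control and by 0.51 in SH-2251 cells. Spots of the same array share their RNA and hybridization and are no replicates of the condition.

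Stat4, the STAT of IL-12 and of Th1 differentiation, was at 2.19 in control resting, 1.64 in SH-2251 resting, 1.01 in control restimulated and 1.12 in SH-2251 restimulated cells. Both restimulated arrays were below both resting arrays. After restimulation Stat4 differed by -1.17, a 2.25-fold lower value, in control cells and by -0.51 in SH-2251 cells. Stat4 was the only 1 of the 10 genes at least 2-fold lower after restimulation of control cells, where 7.34% of all genes were, and Socs2 the only 1 in SH-2251 cells, where 6.98% were. With SH-2251 Stat4 differed by -0.55 in resting cells and by 0.11 in restimulated cells.

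**Figure D4:**
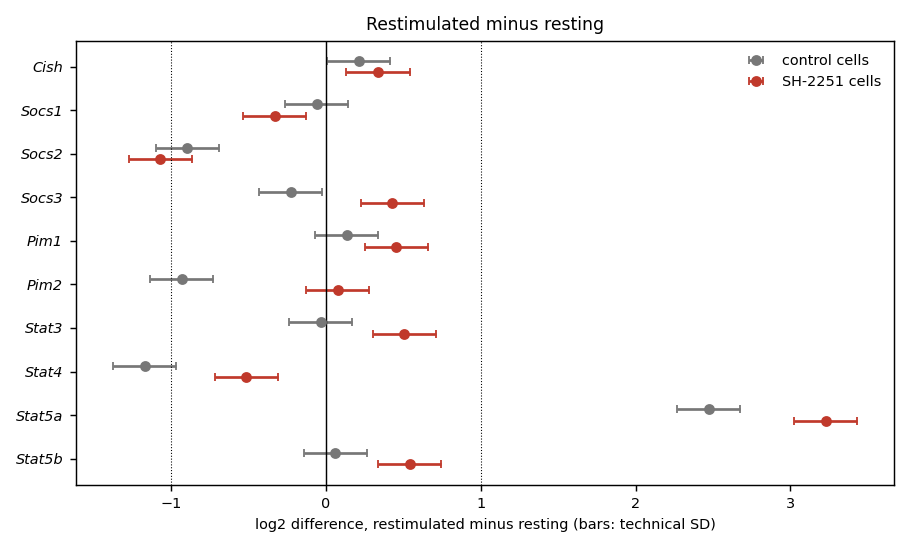
Difference between restimulated and resting cells for each gene (x axis: log2 difference, restimulated minus resting; grey: control cells; red: SH-2251 cells; bars: technical SD; dotted lines: 2-fold). Stat5a is far to the right with either treatment, 2.47 and 3.23, Socs2 and Stat4 lie to the left, and in 8 of the 10 genes the value in SH-2251 cells lies to the right of that in control cells.

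Over the 10 genes, the median difference with SH-2251 was -0.037 in resting and 0.11 in restimulated cells, beside -0.055 and -0.063 over all genes compared. After restimulation the medians were -0.047 in control and 0.38 in SH-2251 cells, beside -0.064 and -0.051. Differences larger than the technical SD were found for 4 of the 10 genes with SH-2251 in resting cells (45.8% of all genes), 6 in restimulated cells (46.8%), 6 after restimulation of control cells (66.5%) and 9 after restimulation of SH-2251 cells (66.3%).

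The difference between the responses, that is the difference with SH-2251 in restimulated cells minus that in resting cells, was above 0 for 8 of the 10 genes and had a median of 0.51, beside 0.012 over 11518 genes measured on all 4 arrays. Its technical SD was 0.289. It was larger than that and positive for 7 of the 10 genes: Pim2 at 1.01, Stat5a at 0.75, Stat4 and Socs3 at 0.66, Stat3 at 0.54, Stat5b at 0.48 and Pim1 at 0.32. Cish, at 0.13, and Socs2, at -0.17, were within it, and so was Socs1 at -0.27. Over all 11518 genes 19.5% exceeded it in either direction, 1171 of them upwards and 1077 downwards, and 6050 genes were above 0. Only Pim2 reached 2-fold, where 0.738% of all genes did in the positive and 0.478% in the negative direction, and its value was close to that limit: it was 0.99 under median centring, 0.98 under quantile normalization, 0.95 as the mean of its probes and 1.28 under normexp. All 10 values rest on the same 4 arrays, so they are not independent of each other. The 10 genes were also chosen with earlier results of these data known.

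The rest of the pathway was described through lists of 94 genes in all, of which 91 were on the arrays. Of the 87 that could be compared, 19 differed at least 2-fold with SH-2251 in either state, or 21.8%, beside 7.68% of all 13156 genes compared. After restimulation with either treatment 40 did so, or 46%, beside 18.1% of all genes. The lists were chosen with results of these data known, so nothing is read from these shares. Of the 4 Janus kinases Jak2 was at least 2-fold higher after restimulation, by 1.97 in control and 2.18 in SH-2251 cells. At least 2-fold higher were 7.2% and 7.09% of all genes, and the resting levels of Jak2 were 3.16 and 3.41. None of the Janus kinases reached 2-fold with SH-2251. Of the 10 measured PIAS proteins, tyrosine phosphatases and adaptors that limit STAT signalling, 0 reached 2-fold in any of the 4 comparisons.

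The other SOCS and Pim genes, 5 in number, had a median difference after restimulation of 0.80 in control and 1.06 in SH-2251 cells. The medians over all genes were -0.064 and -0.051. Of the 5 genes 2 and 3 were at least 2-fold higher (7.2% and 7.09% of all genes). These were Pim3, a further Pim kinase, at 1.01 in control and 1.40 in SH-2251 cells, Socs4 at 1.18 and 1.06, and, in SH-2251 cells only, Socs7 at 1.06. The difference of Socs7 in control cells was 0.70. With SH-2251 Pim3 differed by -0.82 at rest and by -0.43 after restimulation, which did not reach 2-fold and was in the opposite direction to Pim2.

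Cytokines that act through STATs were the group with the largest values after restimulation. Of those compared, 9 of 11 were at least 2-fold higher in control cells (7.2% of all genes) and 10 of 12 in SH-2251 cells (7.09%). Osm, with a difference of -1.27, was lower in SH-2251 cells. Il3 was not well above background in resting cells and was at least 646-fold higher in restimulated control cells. Il6, whose product activates STAT3, differed with SH-2251 by 1.63 after restimulation, at 5.68 against 4.05. Ifng, which encodes the main Th1 cytokine, differed by -1.64, at 3.70 against 5.34. With SH-2251 3 of 9 cytokines were at least 2-fold lower in resting cells (2.9% of all genes) and none was higher (2.22%). In restimulated cells 2 of 12 were higher (2.65%) and 3 lower (2.78%). Several genes of the lists are named here and below after their values were seen. The 3 lower in resting cells were Il10 at -1.71, Il13 at -1.32 and Il21, which fell below background with SH-2251 and had a bound of -1.64. In restimulated cells Il6 and Il9, the latter below background in control cells and with a bound of 1.99, were higher, and Il21 at -2.25, Ifng and Il2 at -1.53 were lower.

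Among 20 receptor chains, 2 of 17 compared were at least 2-fold lower with SH-2251 in resting cells (2.9% of all genes) and 2 of 18 in restimulated cells (2.78%). None was higher (2.22% and 2.65% of all genes). Csf2rb, the shared β chain of the IL-3, IL-5 and GM-CSF receptors, differed by -1.27 and -1.51. The other lower gene in resting cells was Ifngr1, a chain of the IFN-γ receptor, at -1.14. Il10ra, the chain that binds IL-10, differed by -0.83 at rest and was 2.82-fold lower after restimulation, at 1.36 against 2.85. After restimulation Il15ra, Il2ra and Il12rb1 were at least 2-fold higher (7.2% of all genes) and Ifngr1 and Il4ra lower (7.34%) in control cells. In SH-2251 cells Il2ra and Il2rg were higher (7.09%) and Il10ra lower (6.98%). Il2ra, the high-affinity chain of the IL-2 receptor and itself a STAT5 target, differed by -0.36 and 0.039 with SH-2251 and by 1.06 in control and 1.46 in SH-2251 cells after restimulation.

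Target genes were grouped by the STAT they are known to follow. Of 16 STAT5 targets, SH-2251 cells at rest had 2 at least 2-fold lower (2.9% of all genes) and none higher (2.22%). Restimulated SH-2251 cells had 1 higher (2.65%) and none lower (2.78%). Gzmb, which encodes granzyme B, differed by -2.20 at rest and by -0.94 after restimulation. Gimap4 was the other lower gene, at -1.75, and Lta, which encodes lymphotoxin α, the higher, at 1.05. Bcl2l1, a survival gene, differed by 0.32 and 0.39 and was higher after restimulation by 2.17 in control and 2.24 in SH-2251 cells. Bcl6, a repressor that STAT5 keeps down, was higher after restimulation by 2.80 in control and 2.02 in SH-2251 cells. After restimulation 5 STAT5 targets were higher in control cells (7.2% of all genes), namely Il2ra, Gzmb, Ccnd2, Bcl2l1 and Bcl6. In the same cells 2, Ccnd3 and Lta, were lower (7.34%). In SH-2251 cells 6 were higher (7.09%) and 2, Ccnd3 and Osm, lower (6.98%).

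STAT3 targets had a median difference with SH-2251 of -0.78 over 11 genes in resting cells and of -0.21 over 12 genes in restimulated cells. Of these genes, 4 and 3 were at least 2-fold lower (2.9% and 2.78% of all genes) and 0 and 1 higher (2.22% and 2.65%). Il21, a cytokine gene, differed by -2.25 in restimulated cells. Maf, a transcription factor, was lower in both states, at -1.17 and -1.22, and Ahr at -1.26 and Fos at -1.23 were lower in resting cells. Icos, which encodes a costimulatory receptor, was the higher gene, at 1.57. Junb, an AP-1 factor, differed by -0.55 and -0.093. Stat3 and Socs3 themselves differed in resting cells by -0.50 and -1.48 on the same arrays, and a link with the targets was not tested. After restimulation 3 of the targets, Il21 and Junb among them, were higher in control cells (7.2% of all genes). In SH-2251 cells Il21, Junb, Bcl3, Hif1a and Ahr were higher (7.09%). Of 8 STAT4 targets, 0 were at least 2-fold higher (2.22% of all genes) or lower (2.9%) with SH-2251 in resting cells. In restimulated cells 1, Ifng, was lower (2.78%) and none was higher (2.65%). After restimulation 4 of them were higher with either treatment (7.2% of all genes in control and 7.09% in SH-2251 cells). These were Ifng, Il2ra, Furin by 4.09 and 4.57 and Tbx21, the Th1 regulator, by 2.79 and 3.12. Stat4 itself differed by -1.17 in control and by -0.51 in SH-2251 cells, and a link with these genes was not tested. Of 10 STAT6 targets, Il13 alone was at least 2-fold lower in resting cells (2.9% of all genes), at -1.32. Fcer2a, which encodes CD23 and is also expressed by B cells, was the 1 higher in restimulated cells (2.65%), at 1.01. Il4 differed by -0.11 and -0.23 with SH-2251, and Il24 by -0.60 and 0.15. After restimulation 4 STAT6 targets were higher in control cells (7.2% of all genes), Il4, Il13, Il24 and Ccr8. Il4ra was lower there (7.34%), at -1.02, while 6 were higher in SH-2251 cells (7.09%). The lists share genes, Ifng and Il2ra for example, so their counts cannot be added.

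**Figure D5:**
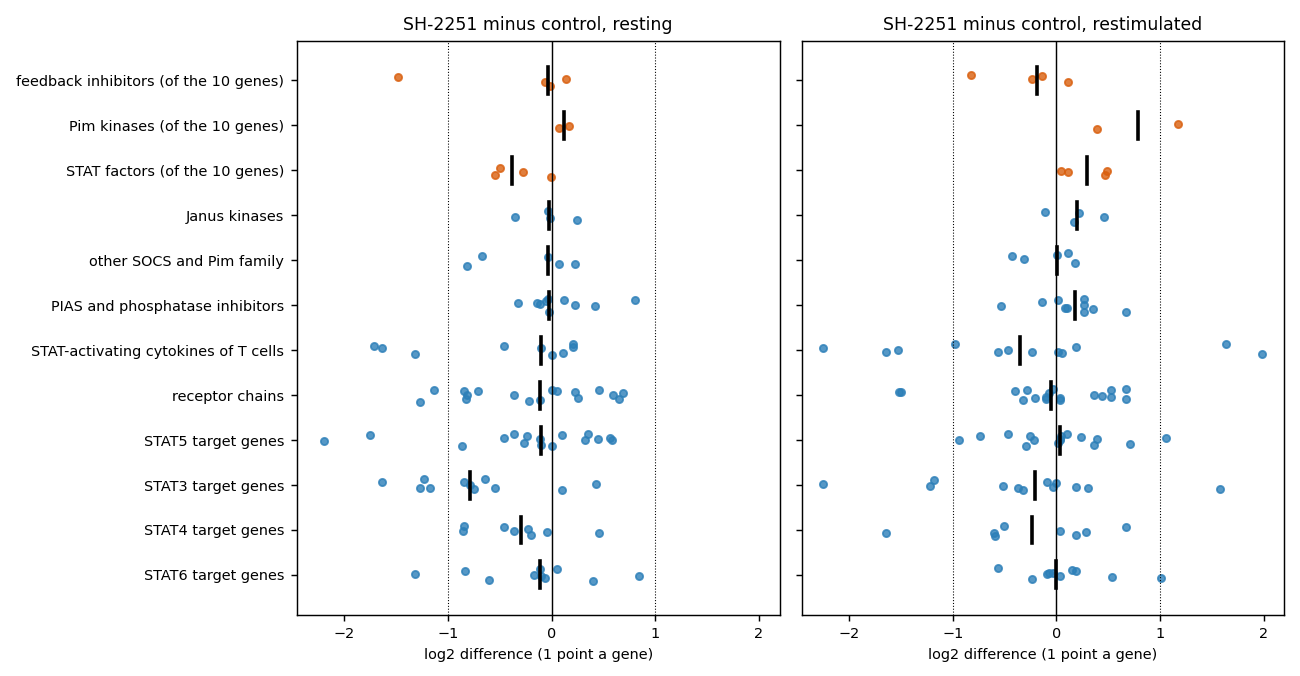
Differences with SH-2251 by list (x axis: log2 difference, SH-2251 minus control, in resting cells on the left and restimulated cells on the right; points: genes, with bounds drawn at their value; orange: the 10 genes; blue: other pathway genes; black bars: median of a list; dotted lines: 2-fold). STAT3 targets have the lowest median in resting cells, -0.78, while Janus kinases and PIAS and phosphatase inhibitors stay within 2-fold.

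Genes whose pattern over the 4 arrays was most like that of Stat5a, the gene with the widest range, and of Socs3, the gene with the largest mean difference with SH-2251, were sought among 11518 genes. Each profile of 4 levels was centred on its mean, and the Euclidean distance between profiles was taken. For Stat5a the 5 nearest were Maff, a small Maf transcription factor, at a distance of 0.235, then Prag1, Dusp2, a phosphatase of MAP kinases, Hspa1a, a heat shock protein, and Pdcd1lg2, which encodes PD-L2, at 0.279. Dusp2 was at 4.89 in control resting, 4.57 in SH-2251 resting, 7.46 in control restimulated and 7.59 in SH-2251 restimulated cells. For Socs3 the 5 nearest included Epor, the erythropoietin receptor, at 0.127, Gimap6, Mt1, a metallothionein, and Vpreb3 at 0.189. Epor was at -1.24, -2.55, -1.42 and -2.21 in the same order. With 4 arrays such likeness is a description of the pattern and holds no more than that.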

How the data were processed

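RNA of Th2 cells from 4 conditions was labelled with Cy3 and hybridised to Agilent whole mouse genome arrays, 1 per condition. Per the file headers, the deposited intensity values came from Feature Extraction 10.7.3.1, which had corrected them for background. The authors also deposited log2 values, which matched the log2 intensity minus the 75th percentile of the array within 0.01 for 99.6% to 99.7% of probes and served as an alternative. Here the log2 of the processed intensity minus the array's 75th percentile was used. Outlier spots (77 to 106 per array) were dropped and spots of a probe averaged. The software's own check of negative control spots was out of range on 3 arrays. Of 41174 probes, 27198 were named through RefSeq accessions (GRCm38.p6), the files having no column of gene symbols, and a gene took its brightest probe. Where only 1 of the arrays compared read a probe well above background, the lowest signal well above background gave a bound. Differences of at least 2-fold were counted, and the technical SD came from the software's error estimates. The members and lists were chosen with earlier results of these data known. The rule for other names was, per list, at most the 3 genes past 2-fold with the largest differences, markers, and the 5 genes nearest in pattern. Further genes behind small counts were named after their values were seen, and some of these genes are not reported here. Alternatives were median centring, quantile normalization, normexp background correction (limma 3.58.1 in R 4.3.3) with and without spots of uneven background, filters, the mean of probes, and limits of 1.5-fold and 3-fold. Other steps used Python 3.11.15 with numpy 2.4.6 and pandas 2.3.3. Arrays give no read depth, and their number limits the precision. The scripts were tested on simulated data.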

Additional observations from a re-analysis of the deposited data

Results flagged for a closer look

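In 2 of the 10 genes the same contrast had opposite signs in different groups, each beyond the technical SD. Stat5a differed with SH-2251 by -0.27 at rest and by 0.48 after restimulation. Socs3 differed after restimulation by -0.23 in control and by 0.43 in SH-2251 cells. With 1 array per condition the difference between groups was not tested in either gene.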

How the results depend on the processing

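No paired analysis was possible because each condition had 1 array and no replicate number. The 50 differences of the 10 genes were recomputed under 9 alternatives of scaling, value source, background, filter, probe or outliers, which gave 447 values, and 423 moved by less than the technical SD. Of those that moved further, 20 were under normexp, all in comparisons that use the SH-2251 resting array. With spots of uneven background left out before normexp, 0 moved that far and 47 did not. Socs2 lacked a value in 3 comparisons when spots of uneven background were left out. Of the 50 differences 40 kept their sign under each alternative that gave a value. The 10 others were near 0 with the main settings, the difference of differences of Socs2 (-0.17) being the largest in size. Across these alternatives Socs3 in resting cells lay between -1.74 and -1.37 and Stat5a after restimulation between 2.37 and 2.50 in control and between 3.13 and 3.51 in SH-2251 cells. The mean of both Stat5b probes gave 0.72 after restimulation of control and 1.16 of SH-2251 cells. After restimulation of SH-2251 cells the count of genes past 2-fold was 2 with the main settings and 3 under the mean of probes, where Stat5b joined. It was 1 under normexp, where Socs2 fell short of 2-fold. Without spots of uneven background it was also 1, but there Socs2 had no value. For the difference of differences it was 1 (Pim2), 0 under median centring, quantile normalization, normexp without uneven spots and the mean of probes, and 2 under normexp, with Pim2 between 0.95 and 1.28. At 3-fold the counts were 0 (1.92% of all genes) and 0 (1.95%) with SH-2251 in resting and restimulated cells, 1 (4.49%) and 1 (4.29%) after restimulation of control and SH-2251 cells and 0 (0.321%) for the difference of differences. At 1.5-fold they were 1 (13.5%), 2 (14%), 4 (33.6%), 2 (33.7%) and 4 (5.43%) in the same order. Of the 87 pathway genes compared 44, or 50.6%, were past 2-fold in at least 1 comparison, beside 21.2% of all 13156 genes. At 3-fold the pathway count was 21, for which the share of all genes was not computed. The lists were chosen with results of these data known, so nothing is read from these counts. Counts over all genes moved with the background correction and with the filter. With SH-2251 in resting cells 282 were higher and 368 lower, against 702 and 162 under normexp, 119 and 179 under normexp without uneven spots, and 623 and 798 without filter or bound. In restimulated cells 334 and 351 became 149 and 158, 143 and 159, and 678 and 950 in the same order. After restimulation of control cells 918 and 937 became 628 and 444, 594 and 437, and 1361 and 1395, and after that of SH-2251 cells 894 and 881 became 731 and 1520, 619 and 456, and 1308 and 1421. The cause was not tested.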
